A study of Mus musculus with 8 samples.

Results

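The genes described here are 41 interferon-stimulated genes other than the guanylate-binding proteins, chosen by symbol from the 22244 genes of the count table. Lung RNA came from the right cranial lobe of adult male wild-type C57BL/6J mice, an inbred strain. In one group 4 mice had been injected with naphthalene, an aromatic hydrocarbon that airway club cells turn into toxic metabolites. The other group was 4 control mice that the labels describe as untreated. No label or design text used here states the dose, the vehicle or the time of sampling, so effects of injection or vehicle and of naphthalene cannot be told apart. Nothing else in the labels separates the groups.

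Interferons are secreted signals, and a cell makes those of type I when sensors detect foreign or misplaced nucleic acid. Type I interferons act through the receptor IFNAR and a complex that holds STAT2 and IRF9 and binds the interferon-stimulated response element. Interferon gamma acts through its own receptor and the gamma-activated site, and it drives IRF1 and the immunity-related GTPases strongly in the mouse. In unchallenged tissue many of these genes keep a tonic level that depends on weak constant interferon signalling.

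Total counts ranged from 10743842 to 16792306 per library, and 14192 genes had enough counts to be tested. The tissue carried its defining markers, with the 6 alveolar type 2 markers summing to 12910 to 16270 CPM (read count relative to library size, with TMM scaling) in naphthalene libraries and 11860 to 14450 CPM in control libraries. All 5 markers of club cells, the target of naphthalene, fell, with sums of 990 to 2704 CPM in naphthalene libraries and 4726 to 9683 CPM in control libraries. The table holds almost nothing for 1 chromosome. Of 1150 protein-coding genes that RefSeq places on chromosome 1, 1138 (99.0%) were listed at 0 in all 8 libraries, against 0.399% to 11.5% on the other autosomes. Among the 41 genes this touches Sp100, a nuclear body protein, which was listed at 0 in every library and is not read as absent. The other 40 genes were tested, with total counts over the 8 libraries from 117 to 22168.

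After naphthalene 18 of the 40 tested genes fell and 0 rose in edgeR's quasi-likelihood test (adjusted p under 0.05 over all tested genes). Over all 14192 genes 28.7% passed, 14.6% as lower and 14.1% as higher. At an unadjusted p under 0.05 in edgeR 1 of the 40 genes, Ifit3, was higher, and DESeq2 called 1 higher after adjustment. The falls were modest: log2 fold changes of the 18 ran from -1.41 for Ifi44 to -0.29 for Stat2, and 3 genes changed by at least 1. The median over the 40 genes was -0.34, against 0.01 over all tested genes, and 33 of the 40 had a negative value. In 16 of the 40 every naphthalene library was below every control library, and in 1, Ifit3, every naphthalene library was above. The same held downward for 14.7% and upward for 13.9% of all tested genes. The 41 genes were chosen with earlier results of these data known, so these counts are a description and no test of the list was made. Marker sums of T, NK and B cells were lower in the same naphthalene libraries (given at the end), and their part in these results was not tested.

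**Figure D1:**
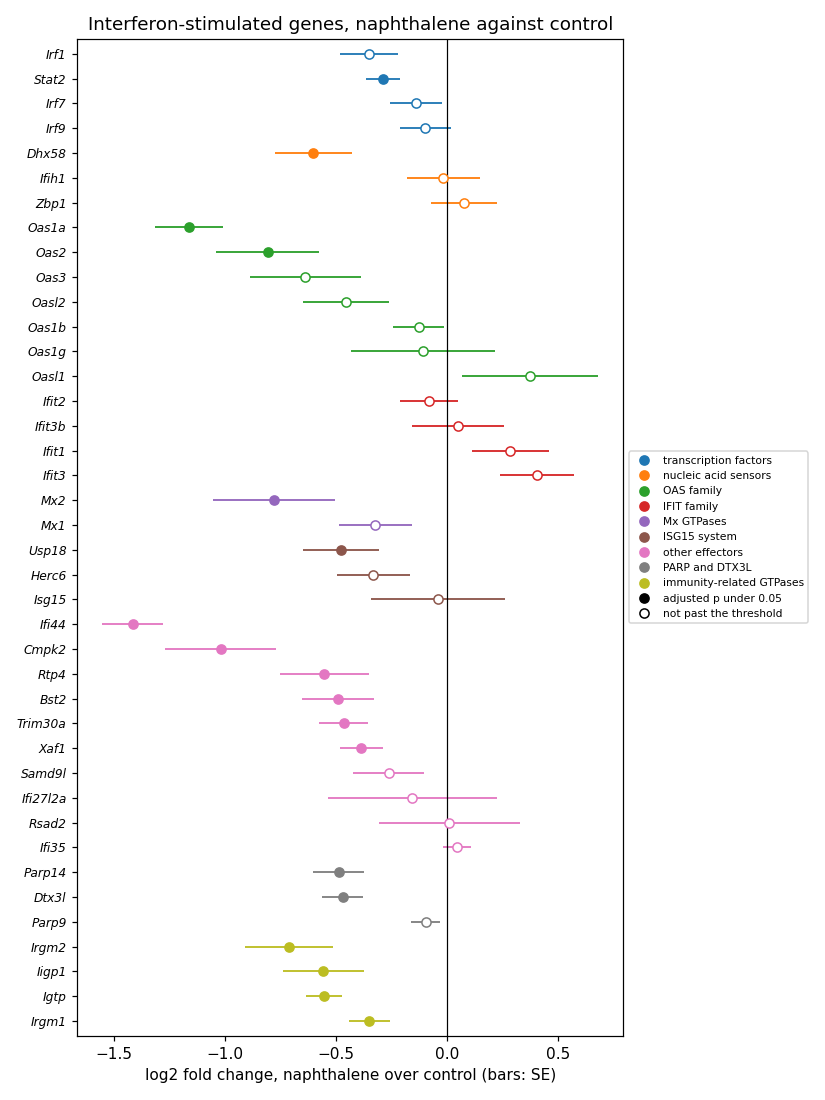
Log2 fold change of each tested gene, naphthalene over control, grouped by role, with bars for the SE (4 libraries per group). Filled points passed an adjusted p of 0.05. All 18 filled points lie left of 0, the 4 immunity-related GTPases are all filled, and none of the 4 IFIT genes is.

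The number of genes past the threshold depended on single mice. It was 11 without naphthalene 3, control 2, control 3 or control 4, and 12 without control 1. Without naphthalene 1, 2 or 4 it was 20, 15 and 19. Lower calls over all genes also changed, to between 1513 and 2593 (2070 with all). Of the 18 genes, 8 were called lower in every one of the 18 alternatives tried, namely Ifi44, Cmpk2, Oas1a, Trim30a, Parp14, Dtx3l, Igtp and Irgm2.

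All 4 immunity-related GTPases fell. These GTPases attack the vacuoles of intracellular parasites and bacteria. Irgm2, a regulatory member that guards host membranes, stood at 35.4, 39.3, 22.2 and 30.9 CPM in naphthalene libraries 1 to 4, against 52.4, 59.4, 53.2 and 44.8 CPM in control libraries 1 to 4, and all values by library keep this order. Its log2 fold change was -0.71 (SE 0.20, edgeR adjusted p = 0.00736), and the groups did not overlap. Naphthalene 3 was the lowest of the 8.

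Igtp, also known as Irgm3, gave the tightest separation of the 4. It had 18.6, 19.5, 18.1 and 16.8 CPM in naphthalene libraries and 25.3, 30.4, 26.7 and 24.7 CPM in control libraries, a log2 fold change of -0.55 (SE 0.08, edgeR adjusted p = 0.00337). Iigp1, an effector that loads onto parasite vacuoles, had 50.4, 60.3, 58.6 and 72.7 CPM after naphthalene and 85.7, 89.3, 112 and 68.5 CPM in controls. Here naphthalene 4 lay above control 4, so the groups overlapped (edgeR adjusted p = 0.0187 for a log2 fold change of -0.56, SE 0.18). The call of Iigp1 was lost without control 3 and naphthalene 1 together (adjusted p = 0.0564). Irgm1, the third regulatory member, averaged 36.2 ± 1.33 CPM after naphthalene and 46.1 ± 5.66 CPM in controls (SD, n = 4 each), with no overlap. Its log2 fold change was -0.35 (SE 0.09, edgeR adjusted p = 0.0276). That call was lost without naphthalene 2 or 3 or control 2, 3 or 4 (adjusted p 0.0516 to 0.0963).

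No gene of the IFIT family passed the test. IFIT proteins bind foreign RNA and block its translation, and their genes are standard readouts of type I interferon. Log2 fold changes of the 4 genes ran from -0.08 to 0.40. Ifit3 had 48.9, 55.8, 48.9 and 65.8 CPM after naphthalene, against 33.6, 48.1, 47.4 and 36.5 CPM in controls. The lowest naphthalene library was just above the highest control. Its log2 fold change was 0.40 (SE 0.17, edgeR adjusted p = 0.056). It passed as higher without naphthalene 1, control 2 or control 3 (adjusted p = 0.0328, 0.0495 and 0.0466).

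Ifit1 averaged 28.6 ± 5.03 CPM after naphthalene and 23.4 ± 4.13 CPM in controls (SD, n = 4 each), and the groups overlapped (edgeR adjusted p = 0.193). Ifit2 averaged 59.6 ± 7.55 and Ifit3b 15.1 ± 3.92 CPM after naphthalene, against 62.97 ± 8.48 and 14.5 ± 2.30 CPM in controls, with adjusted p of 0.654 and 0.867. Ifit3 and Ifit3b are close copies. Of all 100-base windows in their GENCODE transcripts, 31.7% for Ifit3 and 27.4% for Ifit3b also occurred in the other gene, so their counts could be split between them. Summed into 1 row, the pair had a log2 fold change of 0.32 (edgeR adjusted p = 0.123).

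Set against each other within a library, which removes the scaling, the families separated the groups. Summed CPM of the 4 immunity-related GTPases over that of the 4 IFIT genes was 1.01, 1.02, 0.91 and 0.812 in naphthalene libraries and 1.61, 1.52, 1.44 and 1.47 in control libraries. This ratio was chosen after its values were seen and was not tested.

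**Figure D2:**
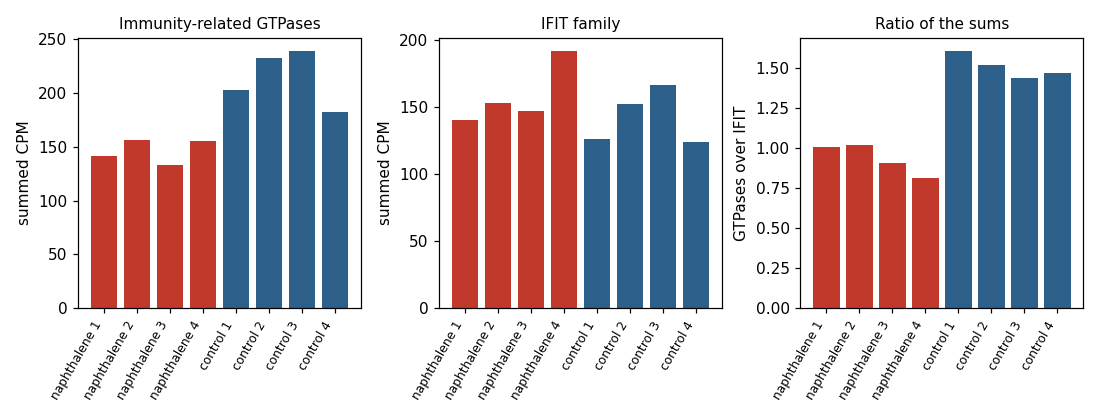
Summed CPM of the immunity-related GTPases (left) and the IFIT family (middle), and the ratio of these sums (right), 1 bar per library, naphthalene red and control blue. The ratio is at most 1.02 in naphthalene libraries and at least 1.44 in control libraries.

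Promoters of these genes were searched for the sites through which interferons act. RefSeq promoters (GRCm38.p6, 250 bases before to 50 after the start site) were matched for 29 of the 41 genes. The core of the interferon-stimulated response element (GAAA, any 2 bases, GAAA) and the gamma-activated site (TTCNNNGAA) were searched on both strands, and matches could overlap. The first was present for 15 of the 29 genes (51.7%), against 3.99% of 27025 genes in the promoter table, and the second for 7 (24.1%) against 9.55%. All 3 immunity-related GTPases with a promoter held the first motif, and Irgm2 and Igtp also held the second just upstream of it. Of the 4 IFIT genes 3 held the first motif, and 1, Ifit2, held the second. Of the genes that fell 7 of 11 with a promoter held the first motif and 4 of 11 the second. The rest of these 11, namely Ifi44, Cmpk2, Dtx3l and Xaf1, held neither motif and are not printed below. Ifi44 had the largest fall of the 40 genes. Among tested genes that did not pass, 8 of 17 held the first motif and 3 of 17 the second. Those 3 were Ifit2, Irf1 and Ifi35, and their promoters are not printed below. Stretches of 8 promoters are given below with matches to either motif in capitals, 3 GTPases first, then the close copies Oas1a and Oas1g, then 3 type I readouts that did not pass. They lie at chr11:58214867-58214956 (+), chr11:58199466-58199555 (+), chr11:48871391-48871480 (-), chr5:120907516-120907635 (-), chr5:120887604-120887723 (-), chr19:34583359-34583448 (+), chr4:156200829-156200918 (-) and chr12:26456533-26456602 (-), in the order printed.
Irgm2: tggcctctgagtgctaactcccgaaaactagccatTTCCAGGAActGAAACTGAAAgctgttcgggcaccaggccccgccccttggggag
Igtp: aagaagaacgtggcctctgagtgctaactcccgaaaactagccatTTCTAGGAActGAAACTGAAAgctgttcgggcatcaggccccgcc
Irgm1: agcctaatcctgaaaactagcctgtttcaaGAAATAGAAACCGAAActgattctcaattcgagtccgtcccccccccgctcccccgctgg
Oas1a: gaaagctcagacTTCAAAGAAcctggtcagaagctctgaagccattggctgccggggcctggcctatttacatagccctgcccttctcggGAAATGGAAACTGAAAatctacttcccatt
Oas1g: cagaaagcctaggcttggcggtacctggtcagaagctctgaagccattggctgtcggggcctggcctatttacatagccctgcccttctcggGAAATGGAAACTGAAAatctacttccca
Ifit3: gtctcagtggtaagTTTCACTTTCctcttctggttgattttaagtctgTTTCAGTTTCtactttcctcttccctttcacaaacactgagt
Isg15: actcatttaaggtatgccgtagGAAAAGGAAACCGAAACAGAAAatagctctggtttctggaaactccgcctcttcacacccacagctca
Rsad2: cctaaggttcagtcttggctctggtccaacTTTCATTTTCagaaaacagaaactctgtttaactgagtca
In Irgm2 and Igtp the capitals are a gamma-activated site followed after 2 bases by a response element core. The letters around them are nearly the same in both genes. Irgm1, Oas1a, Oas1g and Isg15 carry overlapping cores that run together, and Isg15 has 3 of them. In Ifit3 and Rsad2 the cores read on the strand opposite to the gene. A match describes letters and does not show that a factor was bound.

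Of the 4 transcription factors among the 41 genes 1 fell. Stat2, a subunit of the type I interferon complex, had 47.3, 44.0, 41.8 and 37.0 CPM after naphthalene, against 50.8, 53.3, 52.2 and 51.4 CPM in controls. The groups did not overlap (log2 fold change -0.29, SE 0.08, edgeR adjusted p = 0.0425), but this gene was the nearest inside the threshold. Its call was lost without any 1 library other than naphthalene 1 (adjusted p 0.0709 to 0.112), and with no filter (0.0592).

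Irf1, the factor most tied to interferon gamma, was the nearest outside the threshold. It had 113, 92.4, 81.4 and 78.7 CPM after naphthalene and 112, 131, 108 and 116 CPM in controls. Naphthalene 1 alone reached the control range (log2 fold change -0.35, SE 0.13, edgeR adjusted p = 0.0504). Without naphthalene 1 Irf1 passed as lower (adjusted p = 0.00431), and so it did in 9 of 18 alternatives in all. Irf7, which amplifies type I interferon, averaged 12.2 ± 1.36 CPM after naphthalene and 13.4 ± 1.43 CPM in controls, and Irf9 averaged 44.8 ± 4.02 CPM after naphthalene and 47.9 ± 6.23 CPM in controls (SD, n = 4 each, adjusted p of 0.462 and 0.56).

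Of the 3 nucleic acid sensors 1 fell. Dhx58 encodes LGP2, a regulator of the RNA sensors RIG-I and MDA5. It had 6.01, 6.00, 3.69 and 5.40 CPM after naphthalene, against 7.53, 7.91, 9.23 and 7.59 CPM in controls, and fell by 0.60 on the log2 scale (SE 0.17, edgeR adjusted p = 0.0288). No naphthalene library reached a control, and the call was lost without naphthalene 3 or any 1 control (adjusted p 0.0518 to 0.0706). Ifih1, which encodes MDA5, stood at 90.3 ± 12.8 CPM after naphthalene and 91.2 ± 17.2 CPM in controls (SD, n = 4 each, adjusted p = 0.944). Zbp1, a sensor of Z-form nucleic acid, stood at 6.14 ± 1.09 CPM after naphthalene and 5.83 ± 0.657 CPM in controls (adjusted p = 0.776).

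The OAS enzymes sense double-stranded RNA and make short oligoadenylates from ATP. Of 7 OAS genes 2 fell. Oas1a had 2.68, 3.13, 3.075 and 2.29 CPM after naphthalene, against 4.84, 6.75, 7.03 and 6.45 CPM in controls, a log2 fold change of -1.16 (SE 0.15, edgeR adjusted p = 0.00134). All naphthalene values were well below the lowest control. Oas1a shares 40.9% of its 100-base windows with Oas1g, and the pair summed into 1 row still fell (log2 fold change -0.94, adjusted p = 0.00186). Oas1g itself was low, at 1.07 ± 0.458 CPM after naphthalene and 1.17 ± 0.228 CPM in controls (SD, n = 4 each, adjusted p = 0.843).

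Oas2 had 3.93, 4.76, 3.43 and 5.86 CPM after naphthalene and 6.81, 7.47, 10.8 and 6.37 CPM in controls (log2 fold change -0.81, SE 0.23, edgeR adjusted p = 0.02). The groups did not overlap, with control 3 the highest, and the call was lost without control 3 or naphthalene 3 (adjusted p = 0.0526 and 0.0564). Its neighbour Oas3 had a log2 fold change of -0.64 (SE 0.25, adjusted p = 0.103). Oas1b, which is truncated in many laboratory strains, was at 5.88 ± 0.496 CPM after naphthalene and 6.41 ± 0.941 CPM in controls (adjusted p = 0.587). The OAS-like genes differed in sign without passing: Oasl2 had a log2 fold change of -0.45 (SE 0.19, adjusted p = 0.0606) and Oasl1 one of 0.38 (SE 0.31, adjusted p = 0.378). Oasl2 passed as lower without naphthalene 1 (adjusted p = 0.00786).

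Mx proteins are dynamin-like GTPases that trap viral nucleocapsids. Mx2 fell, with 4.64, 5.35, 2.37 and 5.04 CPM after naphthalene, against 7.17, 6.68, 8.96 and 7.30 CPM in controls (log2 fold change -0.78, SE 0.28, edgeR adjusted p = 0.0275). Naphthalene 3 was the lowest library and no value crossed, but the call was lost without control 1, 3 or 4 (adjusted p 0.0546 to 0.0685). Mx1 was at 5.33 ± 1.24 CPM after naphthalene and 6.60 ± 0.598 CPM in controls (SD, n = 4 each, adjusted p = 0.218), and passed as lower without naphthalene 4 (0.047).

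Isg15, the ubiquitin-like modifier, had 5.12, 2.87, 3.16 and 5.49 CPM after naphthalene and 2.96, 5.88, 4.22 and 3.94 CPM in controls. The groups covered the same range (log2 fold change -0.04, SE 0.30, edgeR adjusted p = 0.933). Usp18, the protease that removes ISG15 and restrains the interferon receptor, had 21.8, 20.5, 13.1 and 19.9 CPM after naphthalene, against 24.5, 27.9, 25.6 and 27.2 CPM in controls. It fell by 0.48 on the log2 scale (SE 0.17, edgeR adjusted p = 0.0333), a call lost without naphthalene 2 or any 1 control (adjusted p 0.0526 to 0.0896). Herc6, the mouse ISG15 ligase, averaged 42.9 ± 8.20 CPM after naphthalene and 53.9 ± 7.24 CPM in controls (SD, n = 4 each, adjusted p = 0.107). It passed as lower without naphthalene 4 (adjusted p = 0.0148).

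Of the 10 other tested effectors 6 fell, among them Ifi44 with the largest fall of the 40 genes. Ifi44, an interferon-induced cytoplasmic protein, had 5.65, 5.48, 4.13 and 5.22 CPM after naphthalene, against 11.6, 15.6, 14.8 and 12.96 CPM in controls. That is 0.375 times the control level (log2 fold change -1.41, SE 0.14, adjusted p = 0.000124 in edgeR), and the groups lay far apart. Cmpk2, a mitochondrial nucleotide kinase, had 16.8, 15.5, 7.73 and 11.3 CPM after naphthalene, against 26.4, 26.8, 25.3 and 26.2 CPM in controls (log2 fold change -1.02, SE 0.25, edgeR adjusted p = 0.00323). Its controls were almost level, and the spread lay in the naphthalene mice.

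Rsad2, which encodes the antiviral enzyme viperin, is the gene next to Cmpk2. It had 9.82, 6.59, 9.31 and 7.87 CPM after naphthalene and 4.57, 8.27, 7.82 and 12.5 CPM in controls, and the naphthalene values lay within the control range (log2 fold change 0.01, SE 0.32, edgeR adjusted p = 0.979). Cmpk2 had 1.71, 2.35, 0.83 and 1.43 counts per count of Rsad2 after naphthalene, against 5.78, 3.25, 3.24 and 2.10 in controls. Only naphthalene 2 lay above the lowest control in this ratio, which was not tested.

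Trim30a, a mouse tripartite-motif restriction factor, had 61.1, 60.9, 62.1 and 75.7 CPM after naphthalene, against 81.8, 87.8, 105 and 83.9 CPM in controls (log2 fold change -0.46, SE 0.11, edgeR adjusted p = 0.00937). The groups did not overlap, though naphthalene 4 stood apart from the other 3. Bst2 encodes tetherin, which holds budding virus at the cell surface. It averaged 20.4 ± 4.39 CPM after naphthalene and 28.8 ± 1.78 CPM in controls (SD, n = 4 each, edgeR adjusted p = 0.0287). Rtp4, a receptor chaperone, averaged 11.04 ± 2.19 CPM after naphthalene and 16.3 ± 2.75 CPM in controls (adjusted p = 0.0364), with naphthalene 2 above control 4. Xaf1, a partner of an apoptosis inhibitor, averaged 18.8 ± 1.28 CPM after naphthalene and 24.5 ± 2.88 CPM in controls (adjusted p = 0.0274). The calls of Bst2, Rtp4 and Xaf1 were each lost without single libraries. For Bst2 these were naphthalene 3 or 4 or control 1, 2 or 4 (adjusted p 0.0552 to 0.0807), for Rtp4 naphthalene 3 or control 1, 2 or 3 (0.0754 to 0.108), and for Xaf1 naphthalene 3 or control 2 or 4 (0.0643 to 0.101).

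The other 3 tested effectors did not pass. Samd9l, a growth-restraining antiviral gene, averaged 196 ± 33.9 CPM after naphthalene and 234 ± 31.0 CPM in controls (SD, n = 4 each, adjusted p = 0.18). Ifi35 was nearly level at 50.2 ± 2.25 CPM after naphthalene and 48.6 ± 3.44 CPM in controls (adjusted p = 0.734). Ifi27l2a, a small interferon-induced mitochondrial protein gene, varied widely between mice, at 19.3, 19.3, 25.1 and 53.2 CPM after naphthalene against 24.4, 34.2, 41.5 and 29.3 CPM in controls (adjusted p = 0.734). Without naphthalene 4, the highest of the 8, it passed as lower (log2 fold change -0.61, adjusted p = 0.0271).

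Parp14, Dtx3l and Parp9 lie next to each other and encode ADP-ribosylation enzymes and the ubiquitin ligase that partners PARP9. Parp14 had 173, 165, 131 and 139 CPM after naphthalene, against 196, 234, 223 and 199 CPM in controls (log2 fold change -0.49, SE 0.11, edgeR adjusted p = 0.00748). Dtx3l had 60.3, 56.8, 46.5 and 57.5 CPM after naphthalene, against 72.0, 77.4, 82.0 and 74.7 CPM in controls (log2 fold change -0.47, SE 0.09, edgeR adjusted p = 0.0052). Neither gene overlapped between groups. Parp9 was at 57.0 ± 1.57 CPM after naphthalene and 60.9 ± 4.94 CPM in controls (SD, n = 4 each, adjusted p = 0.441).

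Dtx3l had 1.04, 1.03, 0.82 and 0.986 counts per count of Parp9 after naphthalene, against 1.34, 1.24, 1.26 and 1.2 in controls, which do not overlap. This ratio was not tested. Exons of Dtx3l and Parp9 overlap on opposite strands over 8% and 9.4% of their length, and the strand setting of the counting is not given in the sources used here.

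**Figure D3:**
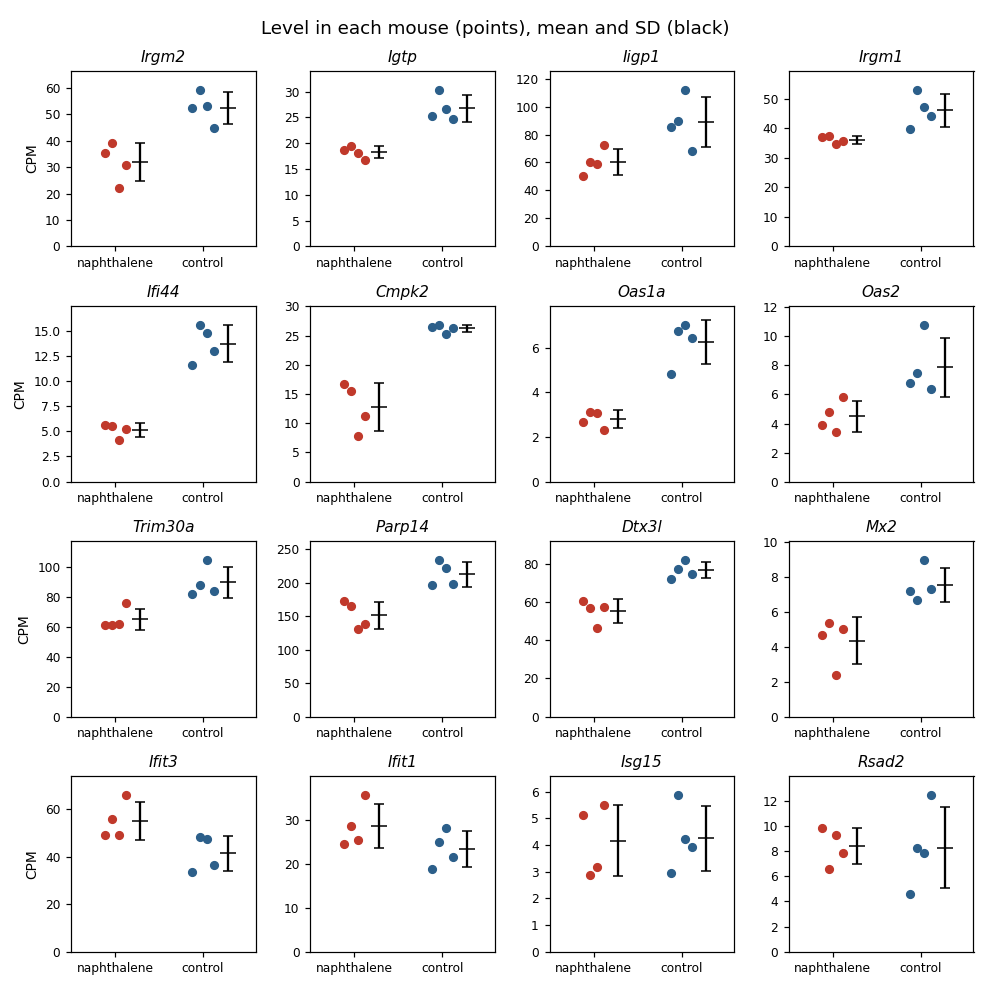
CPM of 16 genes in each library (points), naphthalene red and control blue, with the mean and SD in black and every axis from 0. The upper 3 rows hold genes past the threshold, with overlapping groups only for Iigp1. The bottom row holds Ifit3, Ifit1, Isg15 and Rsad2, which did not pass.

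Levels between genes were set side by side per kilobase of annotated exon. After naphthalene the order was led by Ifi27l2a at 63.1 ± 35.0, Samd9l at 36.0 ± 6.24 and Ifit3 at 31.4 ± 4.59 CPM per kilobase (SD, n = 4). In controls it was led by Ifi27l2a at 69.8 ± 15.7, Samd9l at 43.2 ± 5.71 and Bst2 at 31.8 ± 1.97 CPM per kilobase. Bst2 stood at 22.6 ± 4.87 after naphthalene, and Ifit3 at 23.7 ± 4.25 in controls. After naphthalene neighbours at the head of this order lay within their spread of each other. In controls Ifi27l2a stood above Samd9l by more than the SD of either. At the bottom were Oas3 at 0.267 ± 0.0597 and Oas1g at 0.456 ± 0.196 after naphthalene, against 0.418 ± 0.124 and 0.498 ± 0.0975 in controls.

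Mice within a group differed in a way shared by many of these genes. Naphthalene 3 was the lowest of its group for 21 of the 40 genes and the highest for 0, and its median deviation from the group mean was -0.16 on the log2 scale. Control 1 was the lowest of its group for 23 genes, and control 2 and control 3 were each the highest for 18. Median deviations over all tested genes stayed between -0.005 and 0 for these 4 libraries.

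**Figure D4:**
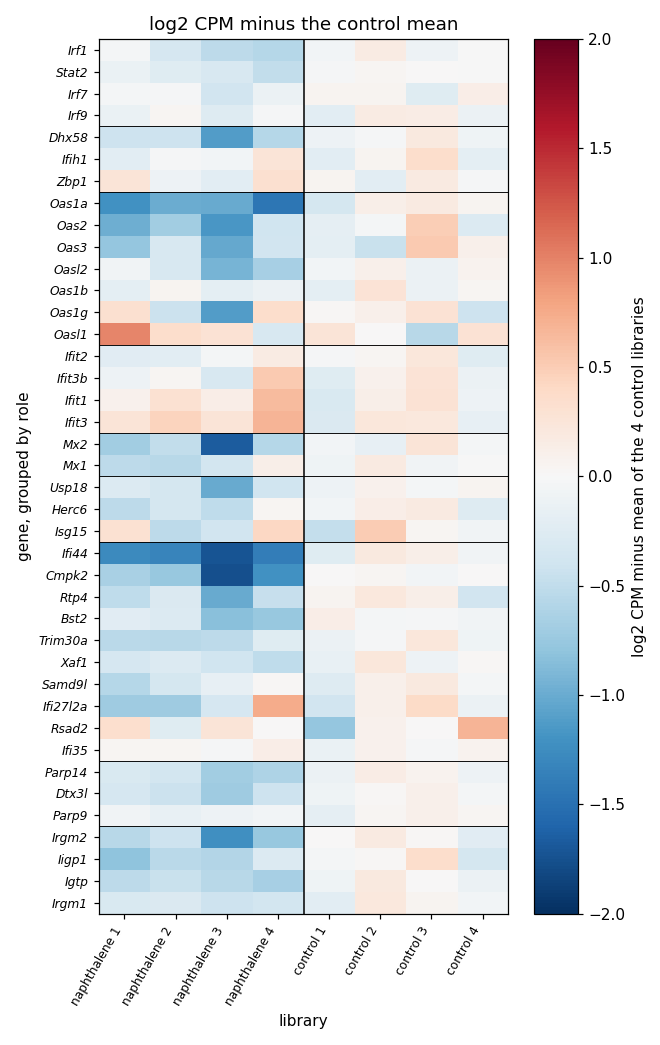
Log2 CPM of each of the 40 tested genes in each library minus the mean of the 4 control libraries, naphthalene left and control right, with genes grouped by role. Ifi44, Cmpk2 and Oas1a are low in all 4 naphthalene libraries, naphthalene 3 holds the deepest blue for Ifi44, Cmpk2, Mx2 and Irgm2, and Ifit1 and Ifit3 are red in all 4 naphthalene libraries.

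The rest of the pathway was followed through 92 further genes, of which 73 were tested. Of these 21 fell and 7 rose, with a median log2 fold change of -0.25. Over all tested genes 14.6% fell and 14.1% rose, and the counts for receptors and for sensors and adaptors were near or under those shares. Those higher numbered 4 without naphthalene 3, control 2 or control 4. Of the 92 genes 10 lie on chromosome 1 and all 10 were listed at 0, including the DNA sensor gene Aim2 and 5 genes of the Ifi200 cluster. No statement on these genes can be made.

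Interferon ligands were scarcely detected. Ifnb1 had 0 counts in all 8 libraries. Ifng had 5, 0, 1 and 3 counts after naphthalene and 3, 1, 4 and 0 counts in controls, too few to test. Of the 10 ligand genes only Ifnk, interferon kappa, could be tested. It had 3.69, 2.54, 2.196 and 3.75 CPM after naphthalene, against 5.47, 7.69, 9.31 and 9.31 CPM in controls, with no overlap (log2 fold change -1.38, SE 0.26, adjusted p = 0.00162 in edgeR).

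Of 9 receptor and kinase genes 1 rose. Ifngr1, the ligand-binding chain of the interferon gamma receptor, had 212, 211, 195 and 179 CPM after naphthalene, against 138, 147, 168 and 143 CPM in controls (log2 fold change 0.42, SE 0.08, edgeR adjusted p = 0.00721). All naphthalene libraries were above all controls. The other receptor chains did not pass. Ifngr2 stood at 66.4 ± 4.15 CPM after naphthalene and 61.6 ± 2.71 CPM in controls, Ifnar1 at 112.8 ± 9.38 CPM after naphthalene and 116.8 ± 1.95 CPM in controls, and Ifnar2 at 61.8 ± 9.98 CPM after naphthalene and 66.96 ± 4.44 CPM in controls (SD, n = 4 each, adjusted p 0.364 to 0.687). Ifnlr1, for interferon lambda, stood at 26.4 ± 3.08 CPM after naphthalene and 24.0 ± 1.90 CPM in controls (adjusted p = 0.4).

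Of 4 further tested transcription factors 2 fell. Irf2, an antagonist and partner of IRF1, averaged 61.9 ± 4.36 CPM after naphthalene and 92.6 ± 3.23 CPM in controls, and Irf8, a factor of monocytes, dendritic cells and B cells, 26.7 ± 3.86 CPM after naphthalene and 39.6 ± 4.60 CPM in controls (SD, n = 4 each, edgeR adjusted p = 0.000597 and 0.00706). Of 15 tested sensors and adaptors 2 rose and 1 fell. Cgas, the DNA sensor, rose by a log2 value of 0.78 and the adaptor gene Myd88 by 0.35, and Unc93b1, the chaperone of endosomal Toll-like receptors, fell by 0.47 (SE 0.23, 0.11 and 0.17, adjusted p = 0.0211, 0.0353 and 0.0345). The call of Cgas was lost without naphthalene 3, control 2 or control 4 (adjusted p 0.0576 to 0.0638), that of Myd88 without any 1 library but naphthalene 4 (0.0527 to 0.102), and that of Unc93b1 without any 1 library but naphthalene 1 or control 3 (0.0656 to 0.0997).

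Of 8 tested brakes and ISG15 enzymes 2 rose and 3 fell. Socs3, an inhibitor of JAK signalling that is also induced by IL-6, rose by a log2 value of 1.18 (SE 0.17, edgeR adjusted p = 0.00027). It averaged 66.9 ± 13.7 CPM after naphthalene and 29.6 ± 4.03 CPM in controls (SD, n = 4 each). Uba7, the ISG15-activating enzyme, fell by 0.65, Ptpn6, the phosphatase SHP-1, by 0.46 and Pias1, an inhibitor of STAT signalling, by 0.28 on the log2 scale (adjusted p 0.00174 to 0.029). The call of Pias1 was lost without naphthalene 2 or 3 or control 2, 3 or 4 (adjusted p 0.0559 to 0.0857). Socs1, a brake induced by interferon gamma, stood at 3.28 ± 0.527 CPM after naphthalene and 2.74 ± 0.609 CPM in controls (adjusted p = 0.46).

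Of 36 tested interferon-stimulated genes outside the 41, 14 fell and 2 rose. Nlrc5, the activator of MHC class I genes, had 27.0, 20.7, 20.3 and 24.2 CPM after naphthalene, against 50.7, 62.9, 49.5 and 55.6 CPM in controls (log2 fold change -1.24, SE 0.12, edgeR adjusted p = 6.64e-05). Tgtp2, a further immunity-related GTPase, had 6.25, 7.501, 5.18 and 7.69 CPM after naphthalene, against 16.4, 28.5, 19.4 and 19.3 CPM in controls (log2 fold change -1.65, SE 0.21, edgeR adjusted p = 0.00017). Neither overlapped between groups. Epsti1, epithelial stromal interaction 1, fell by 1.23 and Trim34a, a tripartite-motif gene, by 0.73 on the log2 scale. The 2 that rose were Ly6a, a surface antigen of endothelial and progenitor cells, by 1.06 and Ifitm2, a restriction factor of virus entry, by 0.48.

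Markers of several cell types also differed between the groups, those of blood-derived cells among them. In bulk RNA fewer cells of a type and less RNA per cell cannot be told apart. All 10 T cell markers fell, with a sum of 41.2 to 51.6 CPM in naphthalene libraries and 81.2 to 92.2 CPM in control libraries. All 8 NK cell markers fell, with sums of 9.84 to 22.3 CPM in naphthalene libraries and 41.2 to 54.4 CPM in control libraries. All 7 tested B cell markers fell, with sums of 46.8 to 80.2 CPM in naphthalene libraries and 144 to 198 CPM in control libraries. Among the markers Cr2, Cxcr2 and Marco, all on chromosome 1, were listed at 0.

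Of 7 non-classical monocyte markers 6 fell. Their sum, 568 to 1417 CPM after naphthalene and 771 to 869 CPM in controls, was mostly Ace, which endothelium also expresses and which did not pass (801 ± 393 CPM after naphthalene and 685 ± 54.4 CPM in controls, SD, n = 4 each). Of 6 tested plasmacytoid dendritic cell markers 4 fell and 1 rose, with sums of 464 to 550 CPM after naphthalene and 540 to 690 CPM in controls. That sum was mostly Tcf4, a broadly expressed gene that did not pass (477 ± 33.5 CPM after naphthalene and 564 ± 67.4 CPM in controls, SD, n = 4 each). Siglech stood at 0.562 ± 0.376 CPM after naphthalene, on 3 to 12 counts per library, and 4.22 ± 1.67 CPM in controls. Spib averaged 2.64 ± 1.87 CPM after naphthalene and 9.42 ± 3.77 CPM in controls, with naphthalene 1 above control 3. Both genes fell. Cox6a2 was the marker that rose, with overlapping groups. It averaged 6.76 ± 2.02 CPM after naphthalene and 3.19 ± 1.80 CPM in controls. Bst2 belongs to that list and to the 41 genes. Of 4 tested classical monocyte markers 1 rose, with sums of 419 to 1067 CPM after naphthalene and 344 to 736 CPM in controls. Of 5 tested neutrophil markers 2 rose, with sums of 207 to 497 CPM after naphthalene and 61.8 to 391 CPM in controls. Control 3 alone reached the naphthalene range, with controls 1, 2 and 4 at 89.4, 61.8 and 93.5 CPM. Of 8 endothelial markers 1 fell, with sums of 3170, 2404, 1778 and 1466 CPM in naphthalene libraries 1 to 4 and 2617 to 3035 CPM in controls. Naphthalene 1 was above every control in this sum, and naphthalene 2, 3 and 4 were below every control. Of 5 ciliated cell markers 4 fell, with sums of 64.2 to 153 CPM after naphthalene and 426 to 710 CPM in controls, which do not overlap. Of 6 fibroblast markers 3 fell, with sums of 1262 to 1891 CPM after naphthalene and 1682 to 2061 CPM in controls. Of the remaining lists, 1 of 6 conventional dendritic cell and 1 of 7 tested alveolar macrophage markers fell, and 3 of 6 alveolar type 1 and 2 of 6 alveolar type 2 markers rose. Over all tested genes 14.6% fell and 14.1% rose. The falls among endothelial, conventional dendritic cell and alveolar macrophage markers were near that share. The part of any of the listed cell types in the fall of the interferon-stimulated genes was not tested.

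**Figure D5:**
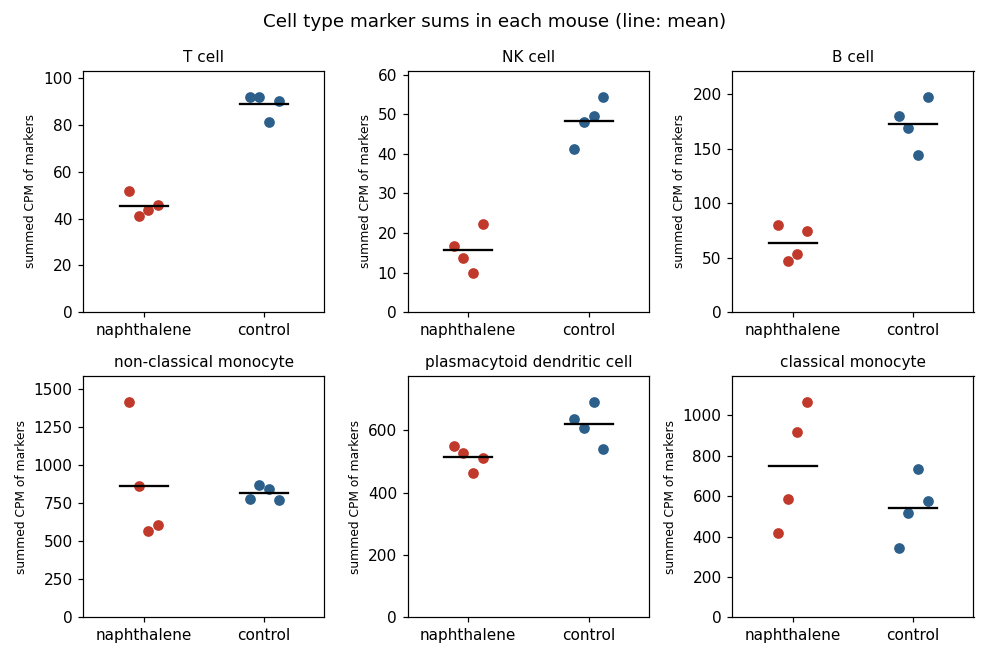
Summed CPM of cell type markers in each library (points) with the group mean (line), naphthalene red and control blue, axes from 0. T, NK and B cell sums do not overlap between groups, and the monocyte and plasmacytoid sums do. Ace makes up most of the non-classical monocyte sum and Tcf4 most of the plasmacytoid sum.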

How the data were processed

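The deposited table holds raw, unscaled counts, whole numbers per gene symbol, for 8 libraries made with a stranded total RNA kit per the labels' protocols. Per the submitters' processing notes the tools were HISAT2 2.2.1, Trim Galore 0.6.7, edgeR 4.2.1 and featureCounts 2.0.6, in no stated role, with mm39 as the build. Annotation, strand setting and handling of multiply mapped reads are not given here. Each column was matched to its sample through the library name, and 0 columns were of another series.

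The main test used edgeR 4.0.16 under R 4.3.3 (TMM, filterByExpr with minimum count 10 and total 15, quasi-likelihood test, group only), with Benjamini-Hochberg adjustment over all tested genes and a threshold of 0.05. CPM values are scaled by TMM, and each SE belongs to the group difference in mean log2 CPM (prior count 2). Chi-square over its degrees of freedom was 5.75 to 51.2 for the 12 within-group pairs of libraries. Within a group, then, no library was a repeat sequencing of another. Pairs between groups were not compared, and these values cannot show whether libraries came from different mice. The labels give separate mice.

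The 41 genes and all lists were chosen with earlier results of these data known. Values per library are given for up to 3 genes past the threshold with the smallest p in each role, those nearest the threshold, Ifit3 as the gene higher at an unadjusted p under 0.05, and others (such as Ifit1, Isg15, Rsad2 and Ifi27l2a) chosen after their values were seen. Of each pathway list up to 4 genes past the threshold are named, with Ifng, Ifnb1 and the receptors. Some items are not reported here. Ly6a, Ifitm2 and Socs1 were added after their values were seen. Transcript windows, exon overlaps and lengths came from GENCODE M21 and promoters from RefSeq, both on GRCm38, while the counts were made on mm39.

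Alternatives were RLE and upper quartile scaling, no filter, each library left out, a replicate block, a filter at a CPM of 1 in 4 libraries, control 3 and naphthalene 1 left out, limma 3.58.1 voom, DESeq2 1.42.0, 1 surrogate variable (sva 3.50.0), and Ifit3 with Ifit3b and Oas1a with Oas1g summed.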

Additional observations from a re-analysis of the deposited data

Results flagged for a closer look

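Trim30a in naphthalene 4 stood at 75.7 CPM, above the 60.9 to 62.1 CPM of the other 3 naphthalene libraries by a gap larger than Dixon's 95% critical value for 4 samples (0.829). It was the 1 value so marked among 80 groups of 4 (40 genes in both conditions), and chance marks about 5% of groups. Trim30a was lower after naphthalene in all 18 alternatives, also without that library.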

How the results depend on the processing

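The median log2 fold change of the 40 genes stayed negative in all 18 alternatives, and ran from -0.38 to -0.28 when 1 library was left out (-0.34 with all). Leaving out 1 library gave 11 to 20 of the 40 genes as lower (18 with all) and 0 to 1 as higher (0 with all). For pathway genes it gave 16 to 26 lower (21 with all) and 4 to 7 higher (7 with all), and over all genes 1513 to 2593 lower and 1397 to 2465 higher. Of the 40, 1 gene, Ifit3, was called higher with the replicate block, with DESeq2 and with 1 surrogate variable, and 2, Ifit3 and Ifit1, without control 3 and naphthalene 1 together, where 16 were lower. With 1 surrogate variable 3118 genes were lower and 3127 higher over all genes, and 35 pathway genes were lower. The cause was not tested.

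Same-numbered naphthalene and control libraries had correlations of deviations of 0.287, 0.033, 0.184 and -0.093. Differently numbered libraries were not compared, so these values cannot decide whether the numbers pair the mice. With the replicate block 20 of the 40 genes were lower and 1 higher.

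Sign changes occurred for 9 genes, none of them past the threshold where the sign differed (smallest adjusted p = 0.265). Leaving out 1 library moved Ifih1 between -0.11 and 0.11, Zbp1 between -0.0037 and 0.16, Oas1g between -0.30 and 0.094, Ifit3b between -0.13 and 0.15, Isg15 between -0.19 and 0.16, Rsad2 between -0.19 and 0.28 and Ifi27l2a between -0.61 and 0.0019. Without control 3 and naphthalene 1 together Ifih1 was at 0.18, Oasl1 at -0.039, Ifit2 at 0.048, Rsad2 at -0.11 and Ifi27l2a at 0.14. Rsad2 was also at -0.018 with upper quartile scaling and -0.0017 with no filter. The lowest genes limit precision: Oas1g had 6 to 24 counts per library.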

Other observations

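Genes next to each other did not all share a call. Of 8 neighbouring pairs among the 41 genes, Igtp with Irgm2 and Parp14 with Dtx3l were both lower. Igtp and Irgm2 overlap in exons on the same strand over 8.01% and 4.39% of their length. They share 5.2% and 3.0% of their 100-base windows with each other, so some of their counts could be split between them. In Rsad2 with Cmpk2, Dtx3l with Parp9, Oas2 with Oas3 and Oas1g with Oas1a 1 gene passed and the other did not, and whether the genes of a pair differed was not tested. Oas1a had 0.484, 0.475, 0.556 and 0.391 counts per count of Oas1b in naphthalene libraries, against 0.871, 0.877, 1.19 and 0.989 in control libraries. Ifit3 had 3.65, 3.79, 4.25 and 3.20 counts per count of its copy Ifit3b in naphthalene libraries, against 2.76, 3.16, 2.72 and 2.76 in control libraries. These ratios separated the groups. Oas1a had 1.88, 3.69, 5.83 and 1.56 counts per count of its copy Oas1g in naphthalene libraries, against 4.15, 5.47, 5.0 and 7.5 in control libraries, which overlap, with naphthalene 3 above 3 of the 4 controls. All 3 pairs were chosen after their values were seen.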
